A study of Mus musculus with 9 samples.

Results

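The Hox genes are the homeobox genes of 4 clusters, HoxA, HoxB, HoxC and HoxD, which lie on mouse chromosomes 6, 11, 15 and 2. They were chosen by symbol alone, as every row of the count table named Hoxa, Hoxb, Hoxc or Hoxd followed by a paralogue number, a rule that uses no measured value, although the Hox genes were taken up as a subject with earlier results of these data known. This gave 39 of the 33924 genes in the table. Their transcripts were counted by RNA sequencing of whole mouse thyroids that had been flash frozen. The question of the comparisons was how thyroid transcripts differ with and without a subunit of the SWI/SNF complexes, which remodel chromatin. There were 3 groups of 3 libraries: thyroids labelled Arid2 KO, where Arid2 encodes a subunit of the PBAF form, thyroids labelled Smarcb1 KO, where Smarcb1 encodes a core subunit, and wild-type thyroids. Strain, age, the alleles and any Cre driver are not given in the sources used here. Each library's title carries its own identifier, but the labels do not say whether it stands for an animal. Each p-value speaks only of the spread among the sequenced libraries, which may be technical.

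Hox proteins are transcription factors that bind DNA through a shared homeodomain, encoded by the homeobox, and that give cells a position along the head-to-tail axis of the embryo. Within a cluster the genes lie in the order of their paralogue numbers: low numbers act in the hindbrain, the pharyngeal arches and the neck, high numbers in the lower trunk, the genitalia and the limbs. Polycomb complexes keep Hox genes silent where they are not used, and trithorax-related factors, to which SWI/SNF belongs in the fly, keep them active. The thyroid forms in the floor of the pharynx, and adult tissues of the neck and chest often keep the Hox pattern of their embryonic level.

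The homeobox is the stretch that the members have in common. Coding DNA was read from the GENCODE M21 transcripts of GRCm38. Over the whole homeobox of 180 bases, found in all 39 members, the 12 pairs of tested members with the same paralogue number were identical at a median of 82.5% of bases, against 66.1% for the 99 pairs of other paralogue numbers in different clusters. No 2 tested members shared an identical run of 50 bases or more anywhere in their annotated transcripts: the longest was 49 bases, between Hoxb6 and Hoxb9. The read length is not given in the sources used here.

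Total counts ran from 33666251 to 89553766 per library, and the Arid2-labelled libraries were the deepest. The targeted genes did not separate the groups clearly. Levels are CPM, counts scaled by TMM to a common library total, and a fold is the log2 of the ratio of fitted group means. Arid2 had 94.6, 77.7 and 59.9 CPM across the Arid2-labelled group, against 68.9, 75.0 and 67.8 CPM across wild type, a log2 fold of 0.13 (SE 0.16, adjusted p = 0.745, edgeR's quasi-likelihood test with Benjamini-Hochberg adjustment). Smarcb1 had 47.5, 53.7 and 59.4 CPM across the Smarcb1-labelled group, against 65.9, 71.7 and 69.3 CPM across wild type, a log2 fold of -0.36 (SE 0.11, adjusted p = 0.0651, same test). The groups are therefore named by their labels. Thyroid follicular markers summed to between 228235 and 324369 CPM in the 9 libraries. Thymocyte markers, 7 genes led by Rag1, reached a sum of 993 CPM for Arid2-labelled replicate 1 and of 151 CPM for Smarcb1-labelled replicate 2, called the thymus-marked libraries below, but 3.28 CPM or less for the other 7, with Rag2 at 0 in 6 of those. Markers of the parathyroid, the gland beside the thyroid, summed to 1581, 1484 and 10.6 CPM in the Arid2-labelled libraries, 16992, 6092 and 9562 CPM in the Smarcb1-labelled libraries and 1236, 4320 and 8.16 CPM in wild type. In such bulk tissue, fewer cells of a type and less RNA per cell cannot be told apart.

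Hox expression in the thyroid stopped at the middle of the clusters. Of the 39 members, 18 had enough counts to be tested, 11 had counts but fell below that filter, and 10 had 0 counts in all 9 libraries. The tested members included Hoxa2 to Hoxa5, Hoxb2 to Hoxb9, Hoxc4, Hoxc5, Hoxd3, Hoxd8 and Hoxd9. Cluster B was the most completely expressed, with 8 of its 10 genes tested, against 5 of 11 in cluster A, 2 of 9 in cluster C and 3 of 9 in cluster D. All tested members had a paralogue number of 9 or less.

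**Figure D1:**
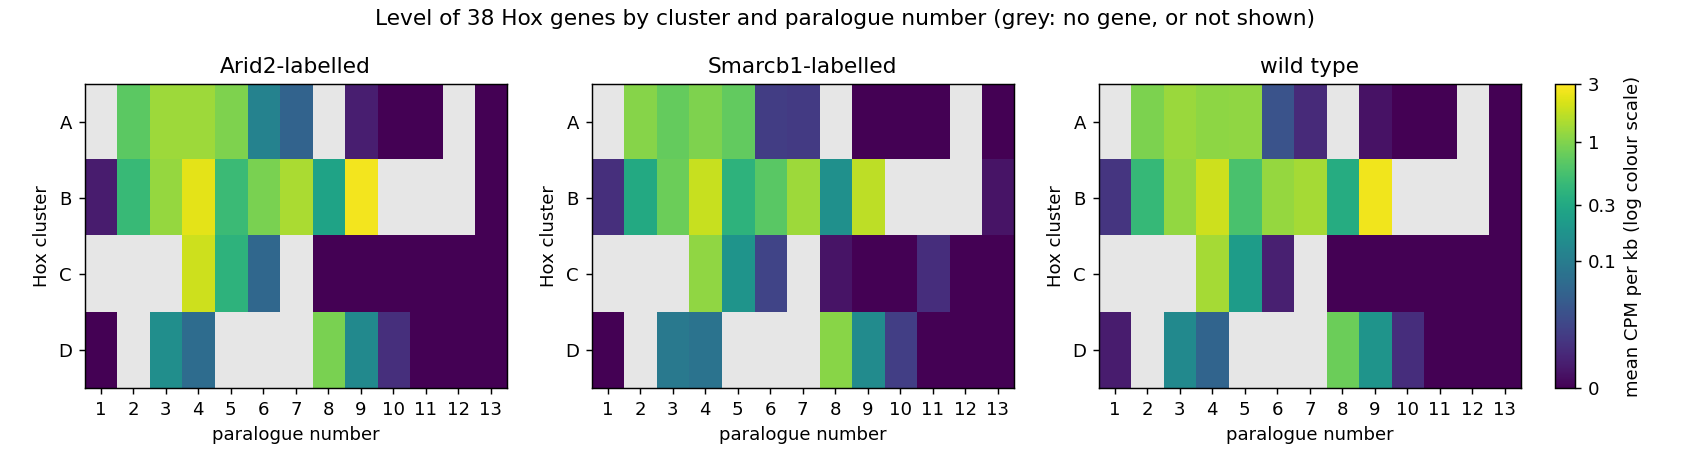
Mean level of 38 Hox genes (CPM per kb of transcript, log colour scale) by cluster (rows) and paralogue number (columns) in the Arid2-labelled, Smarcb1-labelled and wild-type groups of 3 libraries each; grey squares mark places with no gene or with one that is not shown. Bright squares are found among paralogue numbers 1 to 9, and the squares from 10 on are dark in all 3 groups.

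The members with paralogue numbers of 10 or more, which pattern the lower trunk, limbs and genitalia, were nearly silent. These 12 genes together held 14 of the 16738 Hox counts: Hoxd10 had 10, Hoxc11 had 3 and Hoxb13 had 1. The other 9, Hoxa10, Hoxa11, Hoxa13, Hoxc10, Hoxc12, Hoxc13, Hoxd11, Hoxd12 and Hoxd13, were at 0 in all libraries, as was Hoxc9. A count of 0 allows up to 3 counts, which is 0.0330 to 0.0910 CPM per library after TMM scaling and 0.00683 CPM over the 9 libraries together. Such limits cover counting error only.

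Low counts also came from members inside the expressed range. Hoxb1, which sets the identity of a single hindbrain segment, had 9 counts in all, and Hoxd1 and Hoxc8 had 1 each. Hoxd4 had 75 counts over all 9 libraries, with 37 in the Arid2-labelled, 24 in the Smarcb1-labelled and 14 in the wild-type libraries. Hoxa6 had 20, 2 and 3 counts in those groups, Hoxa7 had 24, 4 and 2, Hoxc6 had 19, 4 and 1, and Hoxa9 had 4, 0 and 1, in groups of unequal depth. No library had more than 17 counts of any of these genes. Without the filter on low counts, edgeR's quasi-likelihood test called 0 of these 11 members in each comparison. Over all genes with counts that fit called 0.397% in Arid2-labelled and 3.97% in Smarcb1-labelled against wild type, and 8.1% in Smarcb1-labelled against Arid2-labelled. At an unadjusted p under 0.05 the same test listed Hoxc6 and Hoxa7 in Arid2-labelled against wild type, and none in the other 2 comparisons. The smallest adjusted p there was 0.407 with Benjamini-Hochberg adjustment. With the filter, 14.9% of all tested genes had an unadjusted p under 0.05 in Arid2-labelled against wild type.

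CG dinucleotides are where vertebrate DNA is methylated, and promoters rich in them are the usual targets of Polycomb. The RefSeq table of promoters (GRCm38.p6, 250 bases before to 50 after the start) held a window for 22 of the members. These windows had a median of 13.5 CG dinucleotides, against 7 over all 32851 promoters in the table. The 9 windows of tested members and the 6 of members at 0 counts both had a median of 14, so the silent members were not the poorer in CG by this count. A window of each kind is shown with CG in capitals: Hoxb8, a tested member on the forward strand at chr11:96281655-96281954 with 13 CG, and Hoxd13, a member at 0 counts on the forward strand at chr2:74667975-74668274 with 37 CG.
Hoxb8: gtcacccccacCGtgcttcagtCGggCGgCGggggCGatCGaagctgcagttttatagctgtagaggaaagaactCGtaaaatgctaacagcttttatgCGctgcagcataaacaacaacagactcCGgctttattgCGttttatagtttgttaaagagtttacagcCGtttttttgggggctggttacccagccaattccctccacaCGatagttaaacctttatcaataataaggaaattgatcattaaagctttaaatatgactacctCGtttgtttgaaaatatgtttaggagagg
Hoxd13: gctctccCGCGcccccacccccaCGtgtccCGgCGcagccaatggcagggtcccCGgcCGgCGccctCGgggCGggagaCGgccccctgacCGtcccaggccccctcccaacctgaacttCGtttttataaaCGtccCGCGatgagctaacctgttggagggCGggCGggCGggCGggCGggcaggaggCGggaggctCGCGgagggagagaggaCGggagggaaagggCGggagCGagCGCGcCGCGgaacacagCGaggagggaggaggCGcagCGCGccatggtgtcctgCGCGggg

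The motif CCAAT, searched on both strands, was in 14 of the 22 Hox windows (63.6%), against 37.4% of all promoters. TATAAA was in 3 windows (13.6%), the same share as over all promoters, and both printed windows hold it. TGATNNAT, the letters that Hox proteins bind together with their Pbx partners, was in 3 windows (13.6%), those of Hoxa2, Hoxb1 and Hoxb8, against 8.85% of all promoters. Such matches describe the letters of the window.

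Levels of different genes were compared per kb of their longest annotated transcript. Over the 9 libraries Hoxb9 was the highest at a mean of 2.34 CPM per kb, followed by Hoxb4 at 2.05, Hoxc4 at 1.49 and Hoxb7 at 1.38 CPM per kb, and the lowest tested members were Hoxd9 at 0.155 and Hoxd3 at 0.130 CPM per kb. Hoxb9 led Hoxb4 in the Arid2-labelled means (2.68 against 2.38 CPM per kb) and in the wild-type means (2.66 against 1.92), but not in the Smarcb1-labelled means (1.67 against 1.86), and its spread between libraries covers the gap. By paralogue number, the group 4 genes (Hoxa4, Hoxb4, Hoxc4 and Hoxd4) summed to 3.99, 5.25 and 7.77 CPM per kb in the Arid2-labelled libraries, to 3.66, 5.11 and 3.45 in the Smarcb1-labelled libraries and to 4.17, 4.22 and 5.04 in wild type. Groups 4, 9 and 13 hold 4 genes each and the others 2 or 3, so these sums are over unequal numbers of genes. The sum of group 4 was the largest of any paralogue number in 8 of the 9 libraries. The exception was wild-type replicate 1, where the group 9 genes summed to 4.62 CPM per kb. Cluster B held 54.7% ± 3.71, 52.1% ± 1.79 and 56.1% ± 7.24 of the summed Hox level per kb in the Arid2-labelled, Smarcb1-labelled and wild-type libraries (SD, n = 3 each).

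The number of Hox genes at 0.5 CPM or more differed little: 14, 16 and 16 in the Arid2-labelled libraries, 16, 15 and 13 in the Smarcb1-labelled libraries and 16 in each wild-type library. The plot of levels by library shows 17 of the tested members one by one, and their values below are in the order of replicates 1, 2 and 3.

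**Figure D2:**
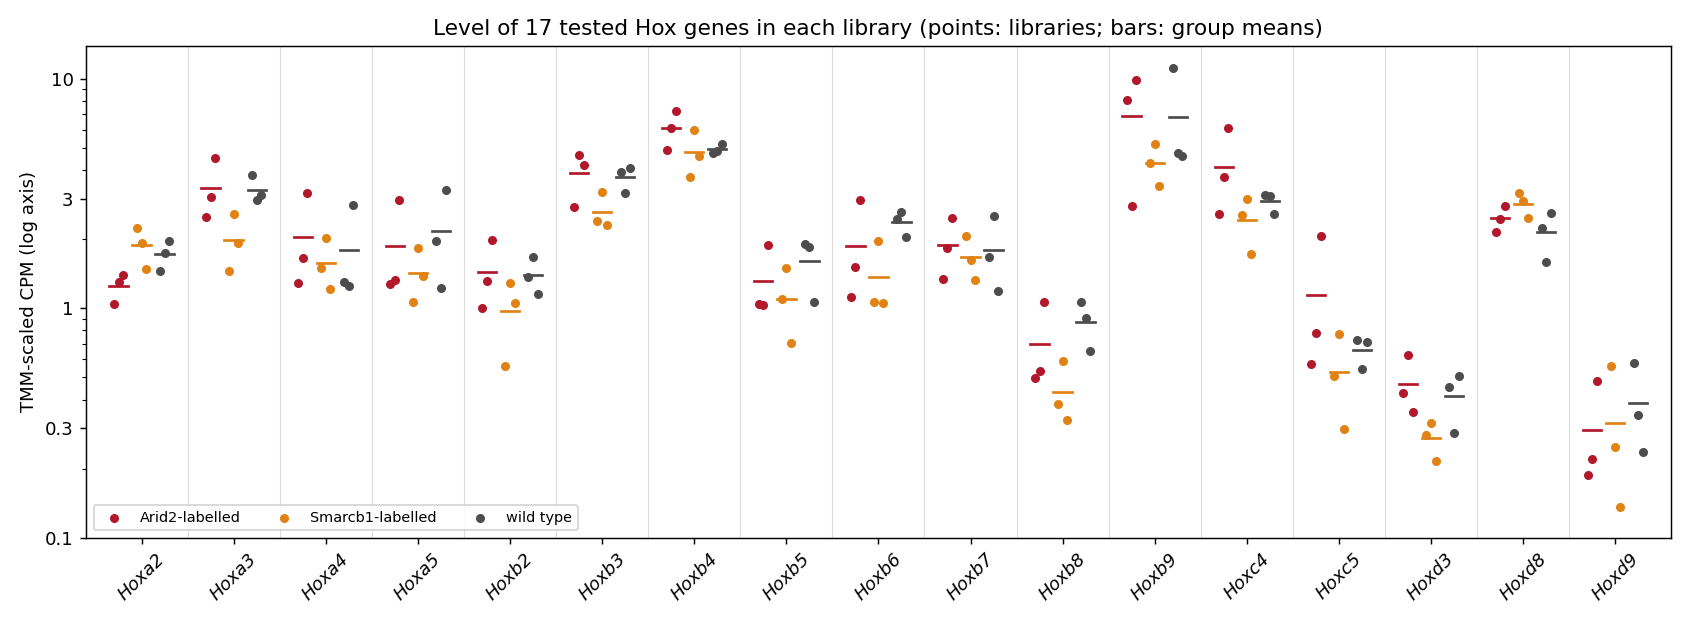
Level of 17 of the 18 tested Hox genes (TMM-scaled CPM, log axis) in the Arid2-labelled, Smarcb1-labelled and wild-type libraries; points are libraries and bars are means of 3. The colours overlap for nearly every gene, and the points of Hoxb9 and Hoxc5 are widely spread within groups.

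The genes of paralogue numbers 1 to 3 pattern the hindbrain and the pharyngeal arches. Hoxa2, which gives the second pharyngeal arch its identity in mouse, stood at 1.05, 1.30 and 1.40 CPM across the Arid2-labelled group, 2.24, 1.92 and 1.49 CPM across the Smarcb1-labelled group and 1.46, 1.74 and 1.96 CPM across wild type. The Arid2-labelled libraries were all below wild type for Hoxa2, while the Smarcb1-labelled libraries overlapped it.

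The group 3 genes are those most closely tied to the neck. Mice without Hoxa3 lack a thymus and parathyroids and have a malformed thyroid, and Hoxb3 and Hoxd3 act beside it. Hoxa3 stood at 2.49, 3.07 and 4.51 CPM across the Arid2-labelled group, 1.45, 2.58 and 1.92 CPM across the Smarcb1-labelled group and 3.79, 2.96 and 3.11 CPM across wild type, with every Smarcb1-labelled library below every wild-type one. Hoxb3 stood at 2.75, 4.68 and 4.19 CPM across the Arid2-labelled group, 2.39, 3.21 and 2.30 CPM across the Smarcb1-labelled group and 3.94, 3.19 and 4.09 CPM across wild type, and its groups overlapped. Hoxd3 was the lowest tested member per kb, at 0.429, 0.626 and 0.353 CPM across the Arid2-labelled group, 0.280, 0.317 and 0.217 CPM across the Smarcb1-labelled group and 0.455, 0.285 and 0.504 CPM across wild type. Hoxb2, which acts in the hindbrain and lies next to Hoxb3, stood at 1.0, 1.31 and 1.99 CPM across the Arid2-labelled group, 0.560, 1.29 and 1.06 CPM across the Smarcb1-labelled group and 1.36, 1.68 and 1.16 CPM across wild type.

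Genes of paralogue numbers 4 and 5 act in the neck and the upper chest. Hoxb4, best known for expanding blood stem cells, stood at 4.88, 6.13 and 7.28 CPM across the Arid2-labelled group, 3.74, 6.0 and 4.60 CPM across the Smarcb1-labelled group and 4.73, 4.87 and 5.19 CPM across wild type, and varied least among the wild-type libraries of all tested members. Hoxc4, which in mouse is needed for the muscle of the oesophagus, stood at 2.56, 3.74 and 6.10 CPM across the Arid2-labelled group, 2.54, 2.99 and 1.73 CPM across the Smarcb1-labelled group and 3.12, 3.07 and 2.58 CPM across wild type. The largest value of Hoxc4 was that of Arid2-labelled replicate 3. Hoxa4, a gene of the cervical vertebrae, stood at 1.29, 1.66 and 3.16 CPM across the Arid2-labelled group, 1.5, 2.01 and 1.22 CPM across the Smarcb1-labelled group and 1.30, 1.25 and 2.82 CPM across wild type. Hoxa5, which mice need for the trachea and lung, stood at 1.28, 1.33 and 2.97 CPM across the Arid2-labelled group, 1.07, 1.83 and 1.38 CPM across the Smarcb1-labelled group and 1.97, 1.22 and 3.29 CPM across wild type. Both Hoxa4 and Hoxa5 were highest in replicate 3 of the Arid2-labelled and of the wild-type libraries. Hoxb5 stood at 1.05, 1.03 and 1.88 CPM across the Arid2-labelled group, 1.09, 1.49 and 0.704 CPM across the Smarcb1-labelled group and 1.91, 1.85 and 1.07 CPM across wild type. Hoxc5 varied most of all, 6.96-fold between its highest and lowest library, with 0.572, 0.782 and 2.07 CPM across the Arid2-labelled group, 0.509, 0.769 and 0.298 CPM across the Smarcb1-labelled group and 0.728, 0.541 and 0.712 CPM across wild type.

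Genes of paralogue numbers 6 to 9 act in the trunk. Hoxb6 stood at 1.12, 1.52 and 2.97 CPM across the Arid2-labelled group, 1.07, 1.97 and 1.06 CPM across the Smarcb1-labelled group and 2.46, 2.62 and 2.05 CPM across wild type. Hoxb7 stood at 1.34, 1.83 and 2.47 CPM across the Arid2-labelled group, 2.06, 1.63 and 1.33 CPM across the Smarcb1-labelled group and 1.67, 2.53 and 1.19 CPM across wild type. Hoxb8, whose forced expression holds blood cell progenitors in an immature state, stood at 0.495, 0.532 and 1.06 CPM across the Arid2-labelled group, 0.382, 0.588 and 0.325 CPM across the Smarcb1-labelled group and 1.06, 0.911 and 0.653 CPM across wild type. For both Hoxb6 and Hoxb8 all 3 Smarcb1-labelled libraries were below all 3 wild-type libraries, with no such gap for Hoxb7. Hoxb9, a gene of the ribs, stood at 8.08, 2.80 and 9.85 CPM across the Arid2-labelled group, 4.30, 5.21 and 3.41 CPM across the Smarcb1-labelled group and 11.2, 4.75 and 4.60 CPM across wild type. One library in the Arid2-labelled group stood low and one in wild type stood high for Hoxb9. Hoxd8 stood at 2.16, 2.46 and 2.78 CPM across the Arid2-labelled group, 3.18, 2.94 and 2.46 CPM across the Smarcb1-labelled group and 2.24, 1.59 and 2.61 CPM across wild type, the highest mean being in the Smarcb1-labelled group. Hoxd9 stood at 0.187, 0.219 and 0.482 CPM across the Arid2-labelled group, 0.560, 0.249 and 0.135 CPM across the Smarcb1-labelled group and 0.576, 0.342 and 0.237 CPM across wild type, with overlap between all groups.

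Much of the spread lay between libraries of the same group, and it ran through most Hox genes together. All 39 genes summed to 33.5, 35.8 and 56.9 CPM in the Arid2-labelled libraries, 30.0, 38.0 and 26.4 CPM in the Smarcb1-labelled libraries and 44.5, 36.3 and 38.5 CPM in wild type. Arid2-labelled replicate 3 was the highest of its group for 16 of the 18 tested genes, and replicate 1 the lowest for 15. Smarcb1-labelled replicate 2 was the highest of its group for 13, and replicate 3 the lowest for 14. In wild type, replicates 1, 2 and 3 were the highest for 7, 4 and 7 genes. Of all 9 libraries, Arid2-labelled replicate 3 was the highest for 7 genes and Smarcb1-labelled replicate 3 the lowest for 9.

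Markers of tissues that surround the thyroid differed between the same libraries. The 6 skeletal muscle markers, led by Myh4, summed to 834, 320 and 1378 CPM in the Arid2-labelled libraries, 207, 786 and 64.9 CPM in the Smarcb1-labelled libraries and 799, 13.5 and 333 CPM in wild type, and all 6 had counts in every library. The library with the highest muscle sum also had the highest Hox sum in 3 of 3 groups, and the one with the lowest muscle sum the lowest Hox sum in 2 of 3. The 3 haemoglobin genes marking blood summed to 243, 629 and 630 CPM in the Arid2-labelled libraries, 144, 179 and 93.4 CPM in the Smarcb1-labelled libraries and 1335, 289 and 1228 CPM in wild type, and gave the same library as highest in 3 and as lowest in 3 of 3 groups, though 2 of the Arid2-labelled sums were nearly equal. The 6 fibroblast markers, led by Col3a1, ran from 1935 to 2318 CPM in the Arid2-labelled, 1763 to 2403 CPM in the Smarcb1-labelled and 2424 to 2726 CPM in the wild-type libraries, and matched the highest Hox library in 1 group and the lowest in 3. Of the 14 marker lists, muscle and blood were the only ones to match the highest Hox library in all 3 groups. Their part in the Hox levels was not tested.

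**Figure D3:**
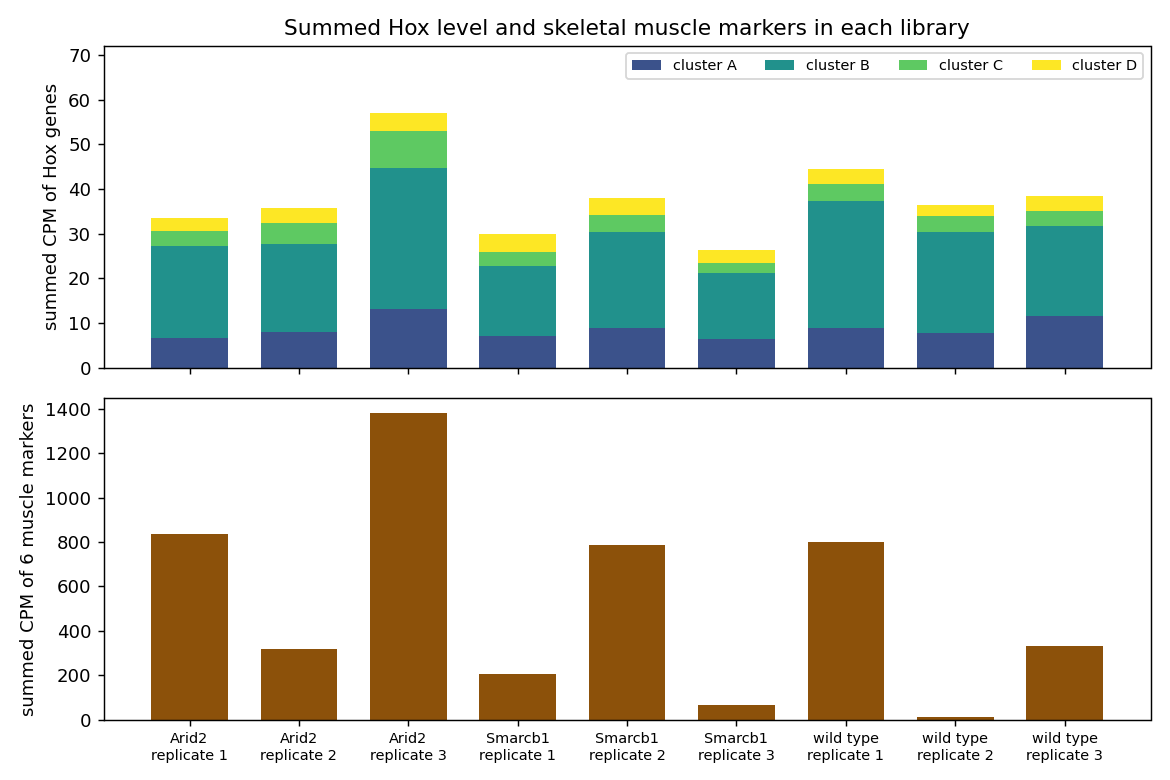
Summed CPM of the Hox genes of clusters A to D (upper panel) and of 6 skeletal muscle markers (lower panel) in each library, with the Arid2-labelled libraries at the left, then the Smarcb1-labelled and the wild-type libraries. The Hox bars run from 26.4 to 56.9 CPM and cluster B is the largest part of each, while the muscle bars run from 13.5 to 1378 CPM.

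In Arid2-labelled against wild-type thyroids no Hox gene passed the test. edgeR's quasi-likelihood test with Benjamini-Hochberg adjustment over 17079 genes called 0 of the 18 at an adjusted p under 0.05, where it called 0.556% of all tested genes (0.234% higher and 0.322% lower). At an unadjusted p under 0.05 edgeR listed 0 of the 18, against 14.9% of all tested genes (7.86% higher and 7.02% lower). The DESeq2 Wald test called 0 of the 18, against 5.2% of all tested genes. Hoxa2 had 1.05, 1.30 and 1.40 CPM in the Arid2-labelled group, against 1.46, 1.74 and 1.96 CPM in wild type, and was the only member whose groups did not overlap. Its log2 fold was -0.46 (SE 0.24, adjusted p = 0.416, edgeR's quasi-likelihood test with Benjamini-Hochberg adjustment). That is 5.56% of the tested members below wild type without overlap, against 12.6% of all tested genes. At the other end Hoxc5 had a log2 fold of 0.78 (SE 0.52, adjusted p = 0.524, same test), which was 0.03 without replicate 3, the library at 2.07 CPM. The median Hox fold was 0.03 on the log2 scale, with 7 of 18 below 0, against 0.02 over all tested genes, of which 47.5% were below 0. It was 0.22 without Arid2-labelled replicate 1 and -0.29 without replicate 3. The 95% intervals, not adjusted for the number of genes, reached from 0.51 to 1.32 on either side of a fold. A call also had to pass the adjustment, so differences of that size or larger could be missed with 3 libraries a group.

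Smarcb1-labelled thyroids had lower mean levels than wild type for most Hox genes, by amounts that did not pass the test. edgeR's quasi-likelihood test with Benjamini-Hochberg adjustment called 0 of the 18, against 7.9% of all tested genes (2.15% higher and 5.74% lower). The DESeq2 Wald test called 0 of the 18, against 16.3% of all tested genes. At an unadjusted p under 0.05 edgeR listed 2 members, both lower (11.1%), against 28.4% of all tested genes, 14.6% lower. Hoxb8 had 0.382, 0.588 and 0.325 CPM in the Smarcb1-labelled group, against 1.06, 0.911 and 0.653 CPM in wild type, a log2 fold of -1.01 (SE 0.40, adjusted p = 0.141, same test). Hoxa3 had 1.45, 2.58 and 1.92 CPM in the Smarcb1-labelled group, against 3.79, 2.96 and 3.11 CPM in wild type, a log2 fold of -0.73 (SE 0.30, adjusted p = 0.149, same test). Hoxb6 had a log2 fold of -0.80 (SE 0.40, adjusted p = 0.223, same test). These 3 genes were below wild type in every library, 16.7% of the tested members, which is the same share as the 16.7% among all tested genes. The highest fold was that of Hoxd8, with a log2 fold of 0.41 (SE 0.24, adjusted p = 0.287, same test).

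The direction was shared by 15 of the 18 genes, with a median log2 fold of -0.41, while 45.4% of all tested genes were below 0 and their median was 0.05. The median Hox fold was -0.69 without Smarcb1-labelled replicate 2, one of the thymus-marked libraries, and -0.20 without replicate 3, the library of its group lowest in Hox and in muscle markers, and -0.73 without both thymus-marked libraries. With the parathyroid markers as a covariate it was -0.14, with 7 of 18 above 0. Those markers were higher in every Smarcb1-labelled library than in any other, so that fit cannot separate them from the group. The 2 comparisons with wild type share the wild-type libraries, so their folds are not independent.

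**Figure D4:**
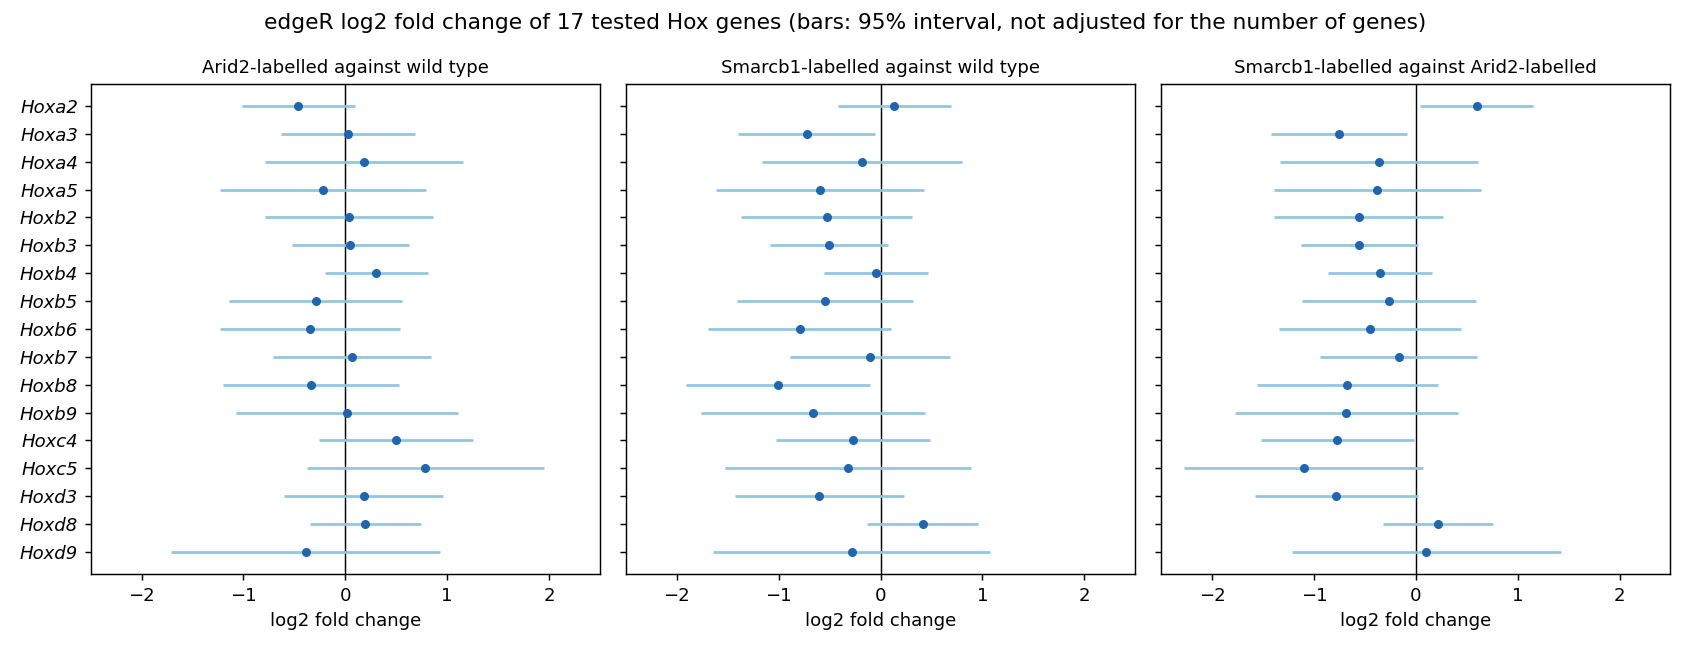
log2 fold change of 17 of the 18 tested Hox genes (edgeR, points) with 95% intervals, not adjusted for the number of genes (bars), for Arid2-labelled against wild type, Smarcb1-labelled against wild type and Smarcb1-labelled against Arid2-labelled libraries. Points lie on both sides of 0 in the first panel and mostly left of 0 in the other 2, where most bars cross 0.

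Smarcb1-labelled against Arid2-labelled thyroids likewise gave no call: edgeR's quasi-likelihood test with Benjamini-Hochberg adjustment called 0 of the 18, against 16.3% of all tested genes (6.95% higher and 9.32% lower). The DESeq2 Wald test called 0 of the 18, against 25.4% of all tested genes. At an unadjusted p under 0.05 edgeR listed 3 members (16.7%), 1 higher and 2 lower, against 35.8% of all tested genes. Hoxa2 had 2.24, 1.92 and 1.49 CPM in the Smarcb1-labelled group, against 1.05, 1.30 and 1.40 CPM in the Arid2-labelled group, with no overlap and a log2 fold of 0.60 (SE 0.24, adjusted p = 0.115, same test). Hoxa3 had 1.45, 2.58 and 1.92 CPM in the Smarcb1-labelled group, against 2.49, 3.07 and 4.51 CPM in the Arid2-labelled group, with a log2 fold of -0.76 (SE 0.30, adjusted p = 0.103, same test). Hoxc4 had a log2 fold of -0.77 (SE 0.33, adjusted p = 0.133) and Hoxc5 one of -1.10 (SE 0.52, adjusted p = 0.16), both by the same edgeR test. Hoxd3 had 0.280, 0.317 and 0.217 CPM in the Smarcb1-labelled group, against 0.429, 0.626 and 0.353 CPM in the Arid2-labelled group, with no overlap and a log2 fold of -0.78 (SE 0.35, adjusted p = 0.147, same test). One member above and one below without overlap make 5.56% each, against 18.3% and 20.5% of all tested genes.

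This comparison depended on single libraries. Of the 18 folds 14 were below 0 and the median was -0.41 on the log2 scale, against 49.7% and 0.00 over all tested genes. Without Arid2-labelled replicate 3 the median was -0.09, with 9 of 18 above 0. Without Smarcb1-labelled replicate 2, Hoxa3 passed the test (log2 fold -0.99, SE 0.31, adjusted p = 0.0496, edgeR's quasi-likelihood test with Benjamini-Hochberg adjustment). That was 1 of 18 Hox genes (5.56%), where 25.5% of all tested genes were called. Without both thymus-marked libraries 4 members passed it and fell: Hoxa3 (log2 fold -1.18, adjusted p = 0.0321), Hoxb3, Hoxc4 (-1.21, adjusted p = 0.0368) and Hoxc5 (-1.82, adjusted p = 0.0468), the same test and adjustment. These 4 of 18 (22.2%) stand beside 21.9% of all tested genes called in that fit. It rests on 2 Smarcb1-labelled and 2 Arid2-labelled libraries.

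Cluster B also holds noncoding genes next to the Hox genes, among them Mir196a-1, the source of a microRNA that directs the cleavage of Hoxb8 mRNA in mouse embryos. The Hox-cluster microRNAs of the families miR-196 and miR-10 are shown with their seeds (bases 2 to 8) in capitals, to show that each family shares a seed. Below them is the Hoxb8 site, with the bases that form A-U or G-C pairs with miR-196a in capitals. The microRNAs are from RefSeq (GRCm38.p6). The site, in the 3′ UTR of the Hoxb8 transcript at chr11:96284888-96284909 on the forward strand, was found by the best ungapped match in GENCODE M21 (GRCm38).
miR-196a-5p: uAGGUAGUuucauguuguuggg
miR-196b-5p: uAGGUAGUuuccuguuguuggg
miR-10a-5p: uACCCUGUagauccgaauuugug
miR-10b-5p: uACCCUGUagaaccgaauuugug
Hoxb8 site: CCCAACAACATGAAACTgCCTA

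In Hoxb8, 21 of the 22 bases of the site form A-U or G-C pairs with miR-196a, against at most 15 in the best match of any other tested member. The remaining base is a G opposite a U within the seed, a G-U pair that was not counted. Mir196a-1 and Mir196a-2 give the same mature sequence, but of the 2 only Mir196a-1 had counts. Its row stood at 2.20, 0.923 and 2.33 CPM across the Arid2-labelled group, 0.890, 1.34 and 2.08 CPM across the Smarcb1-labelled group and 2.12, 1.91 and 1.01 CPM across wild type, with overlap between all groups. These are counts of reads from the precursor locus, between Hox genes of cluster B, and do not measure the mature microRNA. The log2 fold of Mir196a-1 in Arid2-labelled against wild-type libraries was 0.12 (SE 0.45, adjusted p = 0.928, edgeR's quasi-likelihood test with Benjamini-Hochberg adjustment), and it turned negative without Arid2-labelled replicate 1 (-0.05), Arid2-labelled replicate 3 (-0.11) or wild-type replicate 3 (-0.15). Of the 8 noncoding rows of the clusters, 4 were at 0 in all libraries (Hoxa11as, Mir10a, Mir196a-2 and Mir196b), Mir10b and Mir615 were below the filter, and 0 of the 2 tested were called in any comparison by this test, with 0, 1 and 1 at an unadjusted p under 0.05. Over all tested genes 14.9%, 28.4% and 35.8% had such a p.

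The other tested noncoding row, Hoxb3os, is transcribed opposite to Hoxb3. It stood at 10.7, 12.1 and 13.7 CPM across the Arid2-labelled group, 18.8, 15.9 and 14.4 CPM across the Smarcb1-labelled group and 12.3, 11.5 and 12.6 CPM across wild type, so that each Smarcb1-labelled library was above all others. Over all tested genes 17.1% were above wild type without overlap in the Smarcb1-labelled libraries, and 18.3% above the Arid2-labelled libraries. The log2 fold of Hoxb3os was 0.43 against wild type (SE 0.15, adjusted p = 0.102) and 0.42 against the Arid2-labelled libraries (SE 0.15, adjusted p = 0.0777), both by edgeR's quasi-likelihood test with Benjamini-Hochberg adjustment, and at an unadjusted p under 0.05 it was listed in both. The DESeq2 Wald test called it in the second (0.43, adjusted p = 0.0335), where it called 25.4% of all tested genes. The labels do not state whether counting used strand, so reads of overlapping genes cannot be told apart. In GENCODE M21, whose build is not that of the counts, exons of other genes cover part of 9 of the 18 tested members. Hoxd3 was covered over 62.8% of its exon bases by Hoxd4 and other genes, some of them antisense, and Hoxb3 over 52.9% and Hoxb2 over 27.3% by Hoxb3os, so these levels are uncertain. Hoxd4, below the filter, was covered over 52.3% by Hoxd3 and other genes, so its low count is uncertain as well. Hoxa3 was covered over 27.1%, by 5 genes of which 4 are antisense, and the folds of Hoxb8, Hoxb6, Hoxc4 and Hoxd8 named above come from genes with no such overlap.

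Hox proteins bind DNA with Pbx and Meis partners. All 10 Pbx and Meis genes of the list were tested, and edgeR's quasi-likelihood test called 0 against wild type in either group, with 3 at an unadjusted p under 0.05 in the Arid2-labelled and 5 in the Smarcb1-labelled libraries. Over all tested genes 14.9% and 28.4% had such a p. The DESeq2 Wald test called 1 and 2 of the 10, where it called 5.2% and 16.3% of all tested genes. The smallest p values were those of Pbxip1 in the Arid2-labelled libraries (log2 fold -0.36, adjusted p = 0.176 by edgeR and 0.0387 by DESeq2) and Meis1 in the Smarcb1-labelled libraries (0.50, adjusted p = 0.0636 by edgeR and 0.0105 by DESeq2). Meis1 also passed the edgeR test without Smarcb1-labelled replicate 2 (adjusted p = 0.0485). In Smarcb1-labelled against Arid2-labelled libraries edgeR called 1 of the 10 lower (10%), near the 9.32% of all tested genes that it called lower. That gene was Meis3, with 10.5, 15.1 and 12.1 CPM in the Smarcb1-labelled group, against 20.2, 22.7 and 23.0 CPM in the Arid2-labelled group, a log2 fold of -0.80 (SE 0.15, adjusted p = 0.0148, edgeR's quasi-likelihood test with Benjamini-Hochberg adjustment). That call was lost without Arid2-labelled replicate 2 (adjusted p = 0.0522) or 3 (0.0672), with the GC trend removed (-0.24, adjusted p = 0.236) and with the parathyroid covariate (-0.75, adjusted p = 0.106). Over all tested genes these fits called 4.58%, 2.27%, 6.2% and 0.849% in either direction, against 16.3% before such changes. The 8 Cdx, ParaHox and Evx genes, which are homeobox relatives of the clusters, were silent: 7 had 0 counts in all libraries and Cdx1, below the filter, reached 0.294 CPM in Smarcb1-labelled replicate 2.

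Genes of trithorax and MLL factors and their partners, which keep Hox genes active, were all tested (13 of 13). None was called in Arid2-labelled against wild-type libraries by edgeR, with 0 at an unadjusted p under 0.05, or by the DESeq2 Wald test. Over all tested genes 14.9% had such a p, and the DESeq2 Wald test called 5.2%. In Smarcb1-labelled against wild-type libraries edgeR called only Mllt1, where it called 7.9% of all tested genes. At an unadjusted p under 0.05 it listed 4 higher and 4 lower (61.5% of the list), against 28.4% of all tested genes. Mllt1, a subunit of the elongation complex that MLL fusions recruit, fell, with 33.6, 48.7 and 47.8 CPM in the Smarcb1-labelled group, against 66.2, 77.6 and 65.0 CPM in wild type, a log2 fold of -0.68 (SE 0.15, adjusted p = 0.0301, edgeR's quasi-likelihood test with Benjamini-Hochberg adjustment). The count depended on the fit. The DESeq2 Wald test called 6 of the 13, 2 higher and 4 lower, where it called 16.3% of all tested genes. EdgeR called 5 without Smarcb1-labelled replicate 2, 2 higher and 3 lower, and 4 without both thymus-marked libraries, 1 higher and 3 lower. Over all tested genes these fits called 14.7% and 12.6%. Against the Arid2-labelled libraries 3 of 13 fell and 1 rose by edgeR's test, where 9.32% of all tested genes fell and 6.95% rose. At an unadjusted p under 0.05 edgeR listed 3 higher and 4 lower (53.8% of the list), against 35.8% of all tested genes. Kdm6b, a demethylase that removes the Polycomb mark, fell (log2 fold -0.87, SE 0.18, adjusted p = 0.0167), as did Dot1l, the H3K79 methyltransferase (-0.73, SE 0.16, adjusted p = 0.0201), and Mllt1 (-0.71, SE 0.15, adjusted p = 0.0192), while Mllt3 rose (0.52, SE 0.15, adjusted p = 0.0494). These calls were lost when each library's trend over GC content was removed, with Mllt1 at -0.16 against wild type (adjusted p = 0.457, edgeR), and with the parathyroid covariate. Calls over all tested genes fell in both fits too. With the GC trend removed they were 2.33% against wild type and 6.2% against the Arid2-labelled libraries. With the covariate they were 1.15% and 0.849%, where the fit without either called 7.9% and 16.3%. Leaving out each of the 9 libraries in turn, Mllt1 lost its call against wild type in 5 omissions (adjusted p up to 0.0941), and against the Arid2-labelled libraries Mllt3 lost its call in 8, Dot1l in 3, and Kdm6b and Mllt1 in 2, those of Arid2-labelled replicates 2 and 3.

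Retinoic acid switches on the low-numbered Hox genes in the embryo. Of the 16 genes of its synthesis, breakdown and reception 15 were tested, and edgeR called 0 against wild type in either group, with 4 at an unadjusted p under 0.05 in the Arid2-labelled and 5 in the Smarcb1-labelled libraries. Over all tested genes the shares with such a p were 14.9% and 28.4%. The DESeq2 Wald test called 2 in each group, where it called 5.2% and 16.3% of all tested genes. Aldh1a2, the main enzyme that makes retinoic acid in the embryo, had the smallest p in the Arid2-labelled libraries (log2 fold -0.68, adjusted p = 0.182), and the receptor gene Rara in the Smarcb1-labelled libraries (-0.80, adjusted p = 0.0699), both by edgeR's quasi-likelihood test. The DESeq2 Wald test called both, and edgeR called Rara without Smarcb1-labelled replicate 2 (-1.12, adjusted p = 0.0129). In Smarcb1-labelled against Arid2-labelled libraries Rara fell by 0.81 on the log2 scale (adjusted p = 0.0488) and Cyp26c1, whose enzyme breaks down retinoic acid, by 1.55 (adjusted p = 0.0365), by edgeR's quasi-likelihood test with Benjamini-Hochberg adjustment, and neither was called with the GC trend removed or with the parathyroid covariate. Called lower in this comparison were 13.3% of the tested genes of the list, against 9.32% of all tested genes. In either direction 16.3% of all tested genes were called, but 6.2% with the GC trend removed and 0.849% with the parathyroid covariate. Rara lost its call in 8 of 9 omissions of a library and Cyp26c1 in 7.

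Of 13 genes that pattern the pharyngeal pouches and neck, 12 were tested. In Smarcb1-labelled against wild-type libraries 3 of the 12 rose, against 2.15% of all tested genes, by edgeR's quasi-likelihood test with Benjamini-Hochberg adjustment, among them Eya1 with 23.4, 21.6 and 23.6 CPM in the Smarcb1-labelled group, against 9.22, 11.7 and 7.18 CPM in wild type (log2 fold 1.29, SE 0.20, adjusted p = 0.0095) and Six4 (0.97, SE 0.22, adjusted p = 0.0314). Against the Arid2-labelled libraries 5 of the 12 rose, against 6.95% of all tested genes, among them Eya1 (1.61, adjusted p = 0.00436), Pax9 (1.71, adjusted p = 0.0143) and Six4 (0.97, adjusted p = 0.0222). None was called in Arid2-labelled against wild-type libraries, where edgeR listed 0 at an unadjusted p under 0.05 and the DESeq2 Wald test called 0. Over all tested genes the shares were 14.9% and 5.2%. Eya1 kept both calls in 9 of 9 omissions of a library, while against wild type Six4 lost its call in 7, and against the Arid2-labelled libraries Six4 lost it in 4 and Pax9 in 1, that of Arid2-labelled replicate 3. With the GC trend removed, Six4 was not called against wild type (0.70, adjusted p = 0.144) or against the Arid2-labelled libraries (0.74, adjusted p = 0.084) by edgeR. Over all tested genes that fit called 2.33% and 6.2% in either direction. Eya1 and Pax9 are also genes of the pouch that forms the parathyroid, and the parathyroid markers above were higher in all 3 Smarcb1-labelled libraries than in any other. With those markers as a covariate, edgeR still called Eya1 alone of these genes, at 0.98 against wild type (adjusted p = 0.0334) and 1.26 against the Arid2-labelled libraries (adjusted p = 0.0256). Over all tested genes that fit called 1.15% and 0.849%, against 7.9% and 16.3% without the covariate. Gcm2 is both in the list and in the covariate. Because the markers differ with the group, that fit cannot separate parathyroid content from the genotype label.

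Of the 4 thyroid lineage factors edgeR called only Foxe1 with all 9 libraries, lower in both Smarcb1-labelled comparisons. Over all tested genes it called 5.74% lower against wild type and 9.32% lower against the Arid2-labelled libraries. In Smarcb1-labelled against wild-type libraries the DESeq2 Wald test called 3 lower, Foxe1, Nkx2-1 and Pax8. There edgeR without Smarcb1-labelled replicate 3 called 2 lower, Foxe1 and Nkx2-1. Over all tested genes these fits called 16.3% and 1.97% in either direction. Foxe1 had 44.7, 61.8 and 50.9 CPM in the Smarcb1-labelled group, against 241, 278 and 201 CPM in wild type, and fell by 2.19 on the log2 scale (SE 0.19, adjusted p = 0.00102, edgeR's quasi-likelihood test with Benjamini-Hochberg adjustment). In Smarcb1-labelled against Arid2-labelled libraries it fell by 1.48 (adjusted p = 0.0047). Foxe1 had 118, 147 and 174 CPM in the Arid2-labelled libraries, below all wild-type libraries, with a log2 fold of -0.72 (SE 0.18, adjusted p = 0.122, same test), which passed the threshold with the GC trend removed (-0.69, adjusted p = 0.0419) and in the DESeq2 Wald test (adjusted p = 0.00848). Over all tested genes 12.6% were below wild type without overlap there, and those fits called 1.36% and 5.2% in either direction. Both Smarcb1-labelled calls of Foxe1 were kept in 9 of 9 omissions of a library and with the parathyroid covariate.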

How the data were processed

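RNA was taken from frozen mouse thyroids with TRIzol and sequenced from Illumina TruSeq RNA libraries, per the labels' protocols. The deposited table holds the authors' raw read counts per gene for 9 libraries, not normalized. Per the submitters' processing notes, the build was mm9 and the tools included HTSeq 0.6.1, STAR 2.4 and DESeq2. Groups came from the genotype labels, and replicate numbers only follow the order of deposit. The rule for members uses symbols only, but the Hox genes as a subject, the gene lists and the tests were chosen with earlier results of these data known.

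All genes were fitted with edgeR 4.0.16 in R 4.3.3 (TMM scaling, genes kept by filterByExpr, quasi-likelihood F test, 3 group means, 6 residual degrees of freedom), and p-values were adjusted by Benjamini-Hochberg over 17079 genes. A gene was called at an adjusted p under 0.05. The common dispersion was 0.0776. Each SE is the fold divided by the root of its F. Levels are CPM of the deposited counts after TMM scaling. Transcript lengths, GC content (matched for 97.3% of tested genes) and exon overlaps came from GENCODE M21 (GRCm38). Of each other list the called members were named, at most 4 by smallest adjusted p, and otherwise the member with the smallest p. Genes were also fitted with DESeq2 1.42.0, other scalings and filters, only the 6 libraries compared, removal of the GC trend (natural spline, 5 degrees of freedom), and without each library in turn. A parathyroid covariate (Pth, Gcm2 and Casr, averaged as log2(CPM + 1)) and the omission of both thymus-marked libraries were added after seeing the data. Simulated counts served to test the edgeR step. Some genes and sequences are not reported here.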

Additional observations from a re-analysis of the deposited data

How the results depend on the processing

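No Hox gene was called in any comparison with DESeq2 size factors, library totals, no filter, a CPM of at least 1 in 3 libraries, the DESeq2 Wald test, only the 6 libraries compared, the GC trend removed or the parathyroid covariate. The exception was Smarcb1-labelled against Arid2-labelled, with 4 of 18 Hox genes (22.2%) called without both thymus-marked libraries, where 21.9% of all tested genes were called, and 0 to 1 when leaving out each library in turn. The cause was not tested. Calls over all genes ran from 5 to 888 in Arid2-labelled against wild type (main 95), 197 to 2777 in Smarcb1-labelled against wild type (main 1349) and 145 to 4411 in Smarcb1-labelled against Arid2-labelled (main 2779). The median Hox fold with the GC trend removed was -0.09, -0.32 and -0.26 in these comparisons on the log2 scale, and the tested Hox genes had a median GC content of 53.9%, against 49.8% over all tested genes. The fold of Mir196a-1 in Arid2-labelled against wild type reversed to -0.09 without both thymus-marked libraries and ran from -0.15 to 0.43 when leaving out each library. The share of cluster B in the Smarcb1-labelled libraries was 54.9% with no division by length. At 0.1 CPM 18 to 21 Hox genes were detected per library, and at 1 CPM 12 to 15. No paired analysis was possible because the labels give no replicate numbers that groups share. With 12 to 66 counts of Hoxb8 per library, depth limits the low members.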
